A study of Homo sapiens with 8 samples.

Results

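The contacts described here left the human β-globin locus on its 3'HS1 side. A member was an interaction with the midpoint of one end in chr11:5222301-5323175 (hg19) and the midpoint of the other end below 5222301. The rule used positions only. It found 492 of 5276 distinct interactions, counted in each genotype and summed (380 were in both lists), split into 299 of the 2966 from WT and 193 of the 2310 from BCL11A KO. The interactions were measured by CAPTURE-3C-seq, in which a biotinylated, catalytically inactive Cas9 and multiplexed guide RNAs pull down chosen regions and the DNA ligated to them. Cells were HUDEP-2, an immortalized human erythroid progenitor line that makes mainly adult hemoglobin, either wild-type (WT) or knocked out for *BCL11A* (KO). Both genotypes were kept in expansion medium with SCF, EPO, dexamethasone and doxycycline, and the study's methods also describe differentiation before capture. The sources used here do not say whether the knockout line is 1 clone. The authors merged 3 biological replicates per genotype into 1 list, so that no spread between replicates can be given. Every test below compares 2 merged libraries and covers counting error at most, since neighbouring interactions are not independent. The lists hold chromosome 11 positions, so they carry no check of the *BCL11A* edit itself.

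The β-globin locus carries *HBB* and *HBD*, the adult β- and δ-globin genes, *HBG1* and *HBG2*, the fetal γ-globin genes, and *HBE1*, the embryonic ε-globin gene. The locus control region (LCR), a group of hypersensitive sites named HS1 to HS5, is the shared enhancer of these genes and contacts the promoter in use. *BCL11A* encodes a repressor of the γ-globin genes that binds in the locus. The hypersensitive sites 3'HS1 and HS5 flank the locus on either side and are known binding sites of CTCF, a protein found at the base of many chromatin loops. Olfactory receptor (OR) genes, which encode odorant receptors best known from the nasal epithelium, lie in large clusters outside both borders. The captured regions were *HBB*, the γ-globin genes, the region upstream of *HBD* and the LCR, and each interaction had an end in one of them. The 3'HS1 site itself was no captured region.

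Each end was listed as a stretch of 42 bp, and the sequences below show ends that recurred. They carry few of the members, and the comparisons of the genotypes rest on the totals per anchor given further on. Only 5 far ends were used in both libraries, and 4 of them lay in a single bin of 10 kb, chr11:5140000-5149999, which was also the bin with the most members. These 4 are shown because they are far ends found in both genotypes at the resolution of the lists. All sequences were read from the plus strand of GRCh37, the same build as hg19, and capitals mark a GATC at which an end starts or stops.
shared far end in *OR52A4P*, chr11:5142020-5142061: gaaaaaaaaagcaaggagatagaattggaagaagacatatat
shared far end in an intron of ENSG00000290651, chr11:5144230-5144271: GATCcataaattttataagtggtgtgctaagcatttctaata
second shared far end in ENSG00000290651, chr11:5144936-5144977: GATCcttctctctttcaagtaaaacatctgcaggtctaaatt
intergenic shared far end, chr11:5146941-5146982: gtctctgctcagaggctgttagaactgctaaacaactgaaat

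The far end at chr11:5144230-5144271 had 1 member in WT and 3 in KO. The other 3 far ends shown had 1 member in each library. No far end carried more than 4 members in the libraries together, so the far ends were spread and not stacked on few positions. All 293 distinct far ends of WT and all 191 of KO occur once in the genome at 42 bp. Of the 479 distinct far ends of both libraries, 91 started or stopped with GATC, against at most 6 when the ends were shifted by 1 to 4 bases. The restriction enzyme of these libraries is not given in the sources used here.

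Ends inside the locus recurred more. The end with the most members lay in the window of HS3, an enhancer site of the LCR, and is shown with a nearby HS3 end and with an end upstream of *HBD* that had members in WT alone.
HS3 end, chr11:5305798-5305839: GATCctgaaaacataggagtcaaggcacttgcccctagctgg
neighbouring HS3 end, chr11:5306230-5306271: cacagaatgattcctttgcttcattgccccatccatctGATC
*HBD* upstream end, chr11:5256936-5256977: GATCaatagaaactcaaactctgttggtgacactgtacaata

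The HS3 end at chr11:5305798-5305839 carried 13 members in WT and 17 in KO, out of 79 and 101 interactions in all. Its neighbour carried 3 and 4. The end upstream of *HBD* carried 3 members in WT and 0 in KO, out of 15 and 3 interactions in all. The HS3 ends were thus in use in both genotypes, and the *HBD* upstream end was picked for this display by its counts.

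WT sent a larger share of its interactions out on the 3'HS1 side than KO. Members made up 10.1% of the locus interactions in WT (299 of 2966) and 8.35% in KO (193 of 2310), so that the KO share was 0.829 times the WT share (p = 0.0357 by Fisher's exact test, run two-sided throughout). The HS5 side, the other way out of the locus, held 329 interactions in WT and 302 in KO. Of the interactions that left the locus, 47.6% went to the 3'HS1 side in WT (299 of 628) and 39.0% in KO (193 of 495), a ratio of 0.819 (Fisher's exact test, p = 0.0044). Both calls were lost when far ends within 10 kb of the locus edge were left out (ratios 0.866 and 0.878, exact adjusted p = 0.132 and 0.0749). The first call was also lost at the highest score alone, for pairs of 1-kb bins, against interactions with ends at least 10 kb apart and for clusters of interactions (ratios from 0.790 to 0.916, exact adjusted p from 0.088 to 0.309), and the second for clusters as well (ratio 0.835, exact adjusted p = 0.148).

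Split by anchor, the end inside the locus, the difference between the sides passed for the region upstream of *HBD* and for neither other anchor. From that region 145 of 283 outgoing interactions (51.2%) went to the 3'HS1 side in WT and 25 of 78 (32.1%) in KO (Fisher's exact test, adjusted p = 0.00934 over 3 anchors). From the LCR the counts were 150 of 334 (44.9%) and 150 of 385 (39.0%), which did not pass (exact adjusted p = 0.168). From *HBB* they were 4 of 11 and 18 of 32, which did not pass either (exact adjusted p = 0.310). The call for the region upstream of *HBD* was lost when far ends within 10 kb of the edge were left out (126 of 248 and 23 of 62, ratio 0.730, exact adjusted p = 0.194) and for clusters of interactions (32 of 59 and 8 of 21, ratio 0.702, exact adjusted p = 0.464). Whether the anchors differed from each other in this shift was not tested.

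**Figure D1:**
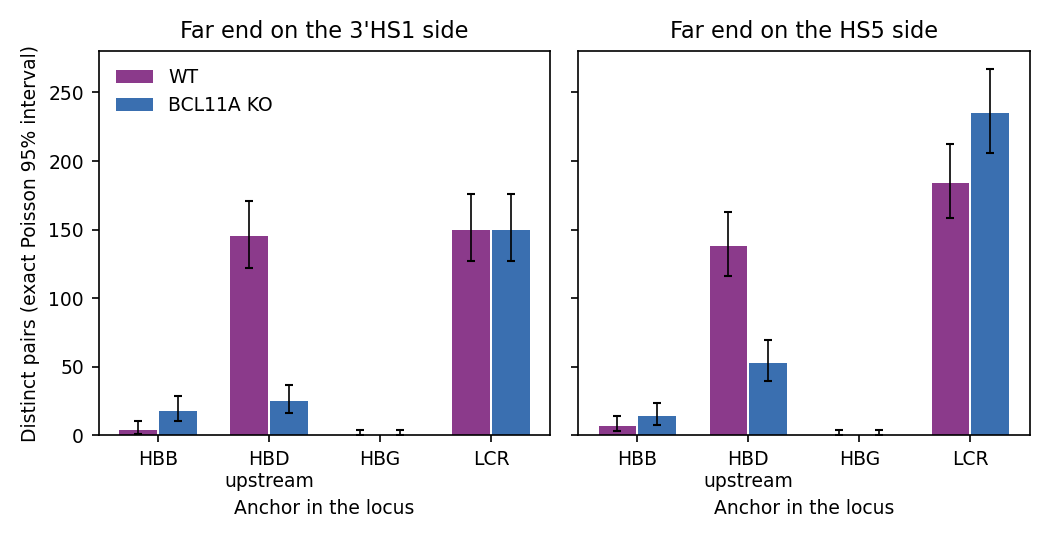
Numbers of distinct interactions (y axis) that left the locus on the 3'HS1 side (left) and on the HS5 side (right), by anchor (x axis), in WT (purple) and BCL11A KO (blue), with exact Poisson 95% intervals as error bars. On the 3'HS1 side the LCR bars stand at 150 in both libraries, while the bar of the *HBD* upstream region stands at 145 in WT and 25 in KO.

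The anchors of the members differed between the genotypes. WT members came in near-equal numbers from the region upstream of *HBD* and from the LCR, whereas most KO members came from the LCR. The interactions to the HS5 side also had fewer anchors upstream of *HBD* in KO, with 138 in WT and 53 in KO from the region upstream of *HBD*, 184 and 235 from the LCR and 7 and 14 from *HBB*. In the tests of 18 anchor intervals and site windows, some of which lie inside others, 5 passed an adjusted p under 0.05 (27.8% of those tested, or 41.7% of the 12 that lie in a captured region and could hold a member). Every interaction has an end in a captured region by construction, so the intervals between the captured regions held 0 members in both libraries. When neighbouring interactions were joined into clusters (both ends within 2 kb of another), a unit chosen after seeing the data that left 80 clusters in WT and 59 in KO, the region upstream of *HBD* kept its call (ratio 0.339, exact adjusted p = 0.0116), and the LCR, *HBB*, HS4 and the window upstream of *HBD* lost theirs (exact adjusted p = 0.210 for each).

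The region upstream of *HBD* (chr11:5255713-5261213) lies between *HBD* and the γ-globin genes, with BCL11A binding that the study calls variable between earlier reports. It anchored 145 WT members (exact Poisson interval 122 to 171), or 48.5%. It anchored 25 KO members (16.2 to 36.9), or 13.0%. The intervals do not overlap, but they cover counts from lists of unequal size (2966 interactions in WT and 2310 in KO). The share of the members in KO fell to 0.267 times that in WT (Fisher's exact test, adjusted p = 8.89e-16). Most of these anchors gathered at one place: 82 WT and 17 KO members were anchored 3 to 4 kb upstream of the *HBD* start site. A further 42 WT members but 2 KO members were anchored 4 to 5 kb upstream. The stretch 1 to 2 kb upstream anchored 14 and 1, and the stretch 2 to 3 kb upstream 5 and 5. The 1-kb window over the stretch 3 to 4 kb upstream (chr11:5258713-5259713) thus held the same 82 WT members (27.4%) and 17 KO members (8.81%). Its share passed (ratio 0.321, exact adjusted p = 1.6e-06). With a window narrowed about its centre the counts were 9 and 3, and the call was lost (exact adjusted p = 0.883). The edge of the window cuts the group of anchors, since 41 WT and 2 KO members lay within 500 bp beyond it, and a window of double the width held 125 (41.8%) and 19 (9.84%, ratio 0.235). The window at chr11:5256213-5257213, with 8 and 0 members, and that at chr11:5257713-5258713, with 5 and 5, did not pass (exact adjusted p = 0.0751 and 0.943), but at double the width the first held 15 and 1 and passed (exact adjusted p = 0.0211). A count of 0 among 193 members has a Wilson upper limit of 1.95%, and the floor of 3 counts stands at 1.55%.

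The LCR anchored 150 members in both libraries (exact Poisson interval 127 to 176). Its share of the members was 50.2% in WT and 77.7% in KO, a rise to 1.55 times the WT share (Fisher's exact test, adjusted p = 5.36e-09). With equal numbers, this difference in share goes with the smaller number of other members in KO. HS3 and HS4, 2 of the enhancer sites of the LCR, held most of these anchors. HS4 (chr11:5308375-5310375) anchored 44 WT members (14.7%) and 65 KO members (33.7%), a rise to 2.29 times the WT share (exact adjusted p = 6.01e-06). HS3 (chr11:5304975-5306975) anchored 84 (28.1%) and 67 (34.7%), which did not pass (exact adjusted p = 0.343). HS2, the site with the classical enhancer activity, anchored 18 and 17 members, HS1 anchored 2 and 0, and HS5, the site nearest the other border, anchored 0 and 0. Counted among the LCR-anchored members alone, 0 of the 5 sites passed (0% of those tested). There HS4 had 29.3% in WT and 43.3% in KO (Fisher's exact test, p = 0.0162, adjusted p = 0.0808) and HS3 had 56.0% and 44.7% (adjusted p = 0.161).

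*HBB* anchored 4 WT members (exact Poisson interval 1.09 to 10.2), or 1.34%, and 18 KO members (10.7 to 28.4), or 9.33%. This was a rise to 6.97 times the WT share (Fisher's exact test, adjusted p = 0.000183), on the smallest counts of the 3 anchors. At the highest score alone the counts were 4 and 12 (ratio 4.59, exact adjusted p = 0.0234). For pairs of 1-kb bins they were 2 and 14 (ratio 10.2, exact adjusted p = 0.000682). The midpoints of these ends lay from -0.02 to 0.07 kb of the *HBB* start site in WT and from -0.62 to 0.30 kb in KO, where positive values are upstream and negative values are inside the gene. The γ-globin genes anchored 0 members in either library. Of the interactions listed for the γ-globin capture, 0 of 86 in WT and 0 of 82 in KO were members. The Wilson upper limits were 4.28% and 4.48%, and the floor of 3 counts stood at 3.49% and 3.66%.

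**Figure D2:**
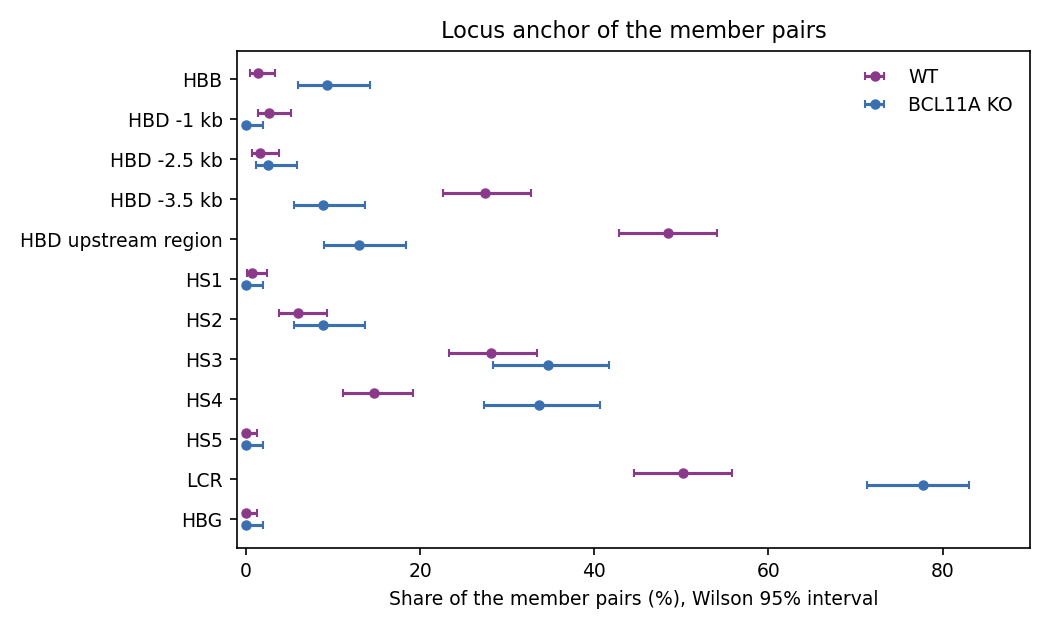
Share of the members (x axis, percent) anchored in each interval or site window of the locus (y axis) in WT (purple, 299 members) and BCL11A KO (blue, 193 members), with Wilson 95% intervals as bars. The *HBD* upstream region falls from 48.5% to 13.0%, while the LCR with 50.2% and 77.7%, HS4 and *HBB* lie higher in KO. Site windows lie inside the intervals, so the shares do not add to the whole.

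The shares above depend on how many members the other anchors had, so the members were also counted against all interactions of their own anchor. Of the interactions with an end upstream of *HBD*, 145 of 1786 (8.12%) were members in WT and 25 of 1013 (2.47%) in KO, a ratio of 0.304 (Fisher's exact test, adjusted p = 7.76e-10). Against the interactions that left that region, the shares were 145 of 951 (15.2%) and 25 of 268 (9.33%), a ratio of 0.612 that still passed (exact adjusted p = 0.0251). Of the *HBB* interactions, 4 of 198 (2.02%) were members in WT and 18 of 125 (14.4%) in KO, a ratio of 7.13 (exact adjusted p = 7.52e-05). Of the LCR interactions, 150 of 1195 (12.6%) and 150 of 1224 (12.3%) were members, and the difference did not pass (exact adjusted p = 1). With clusters as the unit both calls were lost, with 1 of 12 and 6 of 22 for *HBB* (ratio 3.27, exact adjusted p = 0.681) and 32 of 62 and 8 of 33 upstream of *HBD* (ratio 0.470, exact adjusted p = 0.063).

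The far ends gathered in the first 100 kb beyond the locus. The median distance of a far end from the locus edge was 71.8 kb in WT (quartiles 42.4 and 96.3) and 72.8 kb in KO (quartiles 48.6 and 98.8). The nearest far ends lay 0.63 and 0.61 kb from the edge and the farthest 1019 and 1051 kb. Within 100 kb lay 228 WT members (76.3%) and 145 KO members (75.1%). On the HS5 side the median distances were 47.2 and 35.9 kb, and the farthest ends lay 3655 and 16241 kb away. None of the 5 distance classes passed between the genotypes by Fisher's exact test (0 called, 0% of those tested, 0 with an unadjusted p under 0.05, lowest unadjusted p = 0.289). The class from 50 to 100 kb was the fullest, with 130 WT and 89 KO members, and 30 and 19 members lay 500 kb or more away. At the highest score alone the last class held 2 of 179 and 7 of 117. That was a ratio of 5.35, which did not pass (Fisher's exact test, adjusted p = 0.158).

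Distance was also set out by anchor. LCR-anchored far ends had medians of 71.2 kb in WT and 72.1 kb in KO. Far ends anchored upstream of *HBD* had a median of 71.6 kb in WT (quartiles 33.1 and 100.2), and the 25 in KO a median of 77.5 kb (quartiles 71.8 and 97). In WT 108 of 145 members anchored upstream of *HBD* lay within 100 kb, against 116 of 150 for the LCR, and in KO 21 of 25 against 111 of 150. Neither difference between the anchors passed (Fisher's exact test, adjusted p = 0.588 for both). The 4 *HBB*-anchored far ends of WT lay between 75.2 and 76.0 kb, and the 18 of KO between 7.33 and 235.9 kb.

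**Figure D3:**
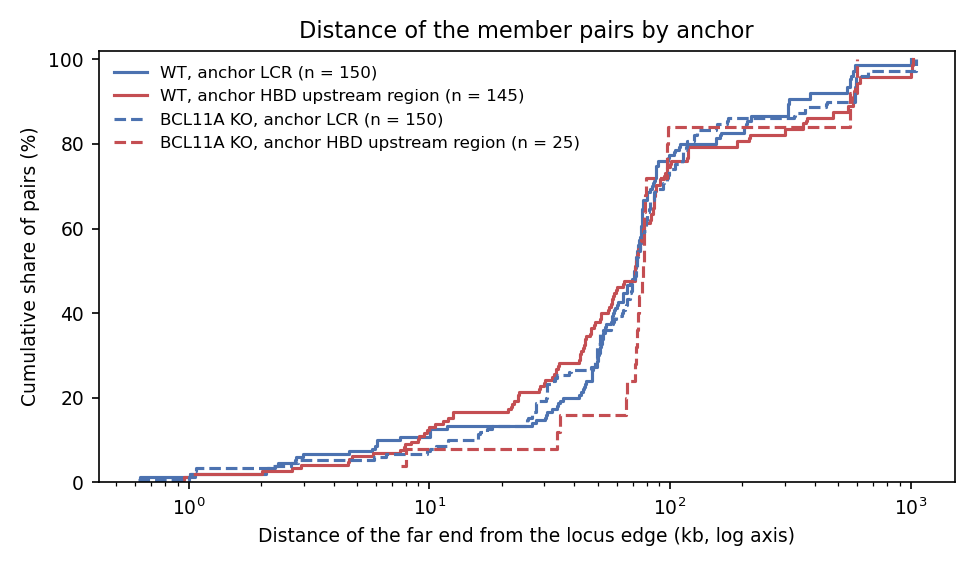
Cumulative share of members (y axis, percent) against the distance of the far end from the locus edge (x axis, kb, log scale) for members anchored in the LCR (blue) and upstream of *HBD* (red) in WT (solid) and BCL11A KO (dashed). The 4 curves climb most steeply near 71 to 78 kb, and the KO curve of the *HBD* upstream region, with 25 members, starts later than the others.

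In bins of 10 kb, the members occupied 34 bins in WT and 26 in KO, of which 18 were shared (52.9% of the WT bins and 69.2% of the KO bins). The shared bins held 253 WT members (84.6%) and 172 KO members (89.1%). At the scale of single ends, 5 far ends were in both libraries (1.71% and 2.62%), as were 22 locus ends (8.76% and 13.5%) and 0 interactions. On the HS5 side 15 far ends (4.87% and 5.26%), 44 locus ends (16.1% and 17.9%) and 3 interactions were in both, and over all interactions of the lists 380 were (12.8% and 16.5%). Most of the latter stay within the locus, and the differences between these overlaps were not tested. Of the 106 bins out to the farthest member, 64 held none. The share of 42-base stretches that are unique in the genome had a median of 93.0% in bins without members and 97.2% in bins with members, and its part in the pattern was not tested.

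Among 19 bins with at least 5 members in the libraries together, 0 differed between the genotypes in their share of the members at an adjusted p under 0.05 (Fisher's exact test, 0% of those tested), and 3 had an unadjusted p under 0.05. Among members at the highest score alone 1 of 11 bins passed, chr11:5120000-5129999 with 0 and 6 members (exact adjusted p = 0.0388). The fullest bin was chr11:5140000-5149999, which holds the OR pseudogene *OR52A4P* and the lncRNA gene ENSG00000290651. It took 41 WT members (13.7%) and 34 KO members (17.6%). Next by the number pooled over both libraries was chr11:5150000-5159999 over *OR52A5*, an olfactory receptor gene, with 24 (8.03%) and 28 (14.5%, exact unadjusted p = 0.0248, adjusted p = 0.235). These neighbouring bins took the largest numbers in KO.

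The bin chr11:5170000-5179999, over *OR52A1*, another olfactory receptor gene, held 35 WT and 13 KO members. The bin before it, chr11:5160000-5169999, also reached by *OR52A1*, held 22 and 6 (exact unadjusted p = 0.0485). The bin chr11:5130000-5139999 overlaps no gene, has the lncRNA gene ENSG00000236897 as its nearest and held 26 and 7 (exact unadjusted p = 0.0279). The bin chr11:5210000-5219999, next to the locus, overlaps no gene, has *OR51V1* as its nearest and held 32 and 14. Of the remaining named bins, chr11:5190000-5199999 with the pseudogenes *OR51A1P* and *OR52Z1P* held 13 and 15, and chr11:5180000-5189999, nearest to *OR51A1P*, held 14 and 7. In chr11:5120000-5129999, with *OR52J1P* and ENSG00000236897, lay 8 and 10, of which 0 fell in *OR52J1P*. Last, chr11:5220000-5229999, of which only the part up to the locus edge counts and which holds *OR51V1*, held 10 and 6.

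**Figure D4:**
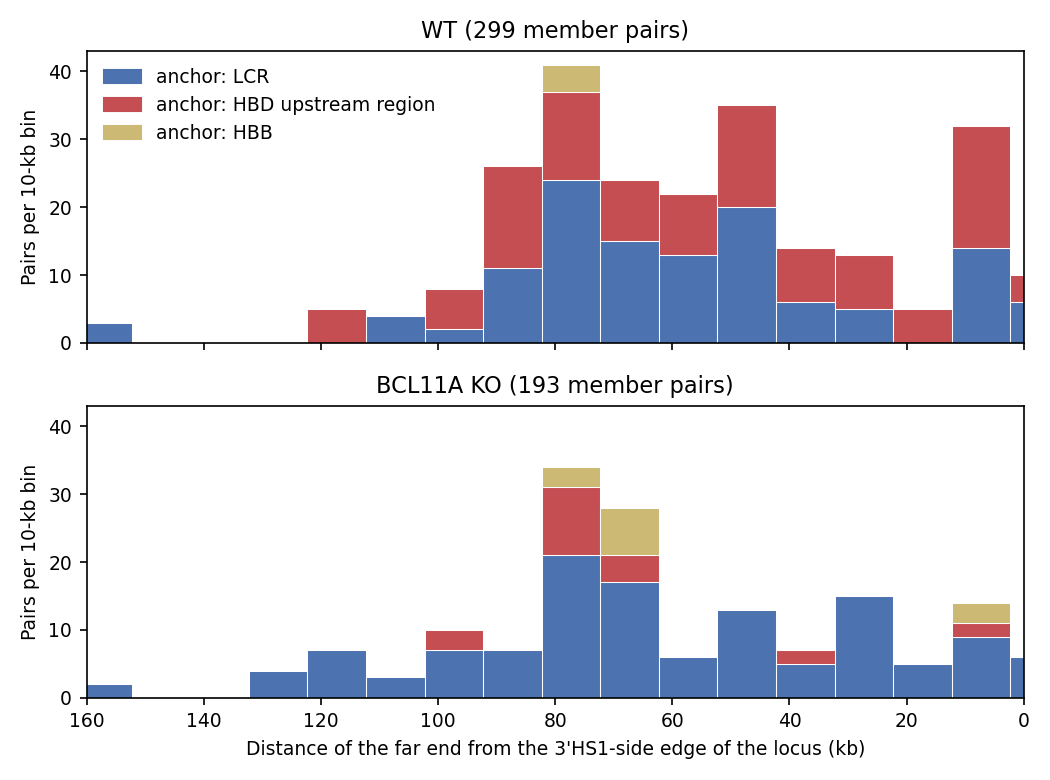
Numbers of members per 10-kb bin (y axis) against the distance of the far end from the locus edge (x axis, kb, locus to the right) in WT (top) and BCL11A KO (bottom), stacked by anchor: LCR (blue), *HBD* upstream region (red) and *HBB* (yellow). The bin that spans 72 to 82 kb is the highest in both, with 41 and 34 members, and the red parts of the bars are mostly missing in KO; members beyond 160 kb are not drawn.

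The bins differed in which anchors reached them. In WT 1 bin, chr11:5140000-5149999, was reached from all 3 anchors, with 24 members from the LCR, 13 from the region upstream of *HBD* and 4 from *HBB*. In KO 3 bins were reached from all 3 anchors. That bin was again one of them, with 21, 10 and 3 members. The neighbouring bin over *OR52A5* had 15 LCR members, 9 from upstream of *HBD* and 0 from *HBB* in WT, and 17, 4 and 7 in KO. The bin next to the locus, chr11:5210000-5219999, had 14, 18 and 0 in WT and 9, 2 and 3 in KO. All 4 *HBB*-anchored members of WT ended in chr11:5140000-5149999. In KO its 18 members fell into 5 bins, and 5 of them lay in *MMP26*.

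Members anchored upstream of *HBD* spread over 25 bins in WT and over 7 in KO. In WT the bins over *OR52A1* (chr11:5170000-5179999) and at chr11:5130000-5139999 each took 15 of them and the bin at chr11:5160000-5169999 took 9, while in KO each took 0 of 25. These differences did not pass (Fisher's exact test, adjusted p = 0.288, 0.288 and 0.659). Among 11 bins tested for this anchor, 1 passed (9.09%): chr11:5140000-5149999 took 13 of 145 in WT (8.97%) and 10 of 25 in KO, a rise to 4.46 times the WT share (exact adjusted p = 0.00294). The larger share in KO did not come with a larger number. Among 16 bins tested for the LCR-anchored members, 0 passed by Fisher's exact test (0%) and 3 had an unadjusted p under 0.05, the lowest at chr11:5100000-5109999 with 0 WT and 7 KO members (unadjusted p = 0.0145).

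The spans of 23 genes held a far end, and 15 of these were OR genes, 11 in WT and 10 in KO, of 54 OR gene symbols out to the farthest member. *OR52A5* (chr11:5150006-5159586, minus strand) held 24 WT and 28 KO far ends. *OR52A1* (chr11:5168054-5175987, minus strand) held 28 and 14. In KO its 14 all came from the LCR, and in WT 20 came from the LCR and 8 from upstream of *HBD*. The lncRNA gene ENSG00000290651 (chr11:5142385-5145743) held 9 and 15, and *OR52A4P* (chr11:5141851-5142808), which overlaps it, held 3 and 7. *OR51V1* (chr11:5220965-5221912), the OR gene next to the locus, held 6 and 5. Also within 100 kb of the edge, *OR51A1P* held 4 and 1, *OR52Z1P* 3 and 0 and the lncRNA gene ENSG00000236897 1 and 3. In these genes WT and KO counts thus ran in either direction, and no gene was tested by itself.

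Far ends in OR gene spans numbered 81 of 299 in WT (27.1%) and 62 of 193 in KO (32.1%), a difference that did not pass (Fisher's exact test, p = 0.263). When 2 kb were added on each side of the genes the shares were 46.2% and 56.0%, which passed (ratio 1.21, exact adjusted p = 0.0421). OR gene spans covered 22.2% of the bases in the last 100 kb before the locus (7 genes) and 14.0% out to the farthest member (55 annotated genes). By annotation, 181 WT and 103 KO far ends were intergenic, 55 and 40 intronic, 54 and 37 in exons outside coding sequence or of non-coding genes, and 9 and 13 in coding exons.

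Beyond 100 kb the far ends were thinner. *MMP26* (chr11:4726014-5013661), a matrix metalloproteinase gene whose long span encloses many OR genes, held 20 WT members, 10 from the LCR and 10 from upstream of *HBD*. It held 11 KO members, 6 from the LCR and 5 from *HBB*. *TRIM68* (chr11:4619902-4629461), a gene of the tripartite motif family of ubiquitin ligases, held 2 and 6. The lncRNA gene *LINC02749* (chr11:4200905-4223893), near the far limit of the members, held 8 and 0. *OR51D1* held 4 and 2 and *OR51A6P* 3 and 0. The 6 genes *OR51L1*, ENSG00000290648, *KRT8P49*, *OR51E1*, *OR52I2* and ENSG00000290650 each held 2 members, the last in KO only and the others in WT only, and *OR55B1P* held 2 in KO. *TRIM21*, the other gene of the listed TRIM, signalling and housekeeping genes within reach, held 0 in both. *RRM1*, *STIM1*, *RHOG*, *PGAP2* and *NUP98* lie beyond the farthest member.

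By the number pooled over both libraries, the most used stretch of 2 kb was chr11:5144000-5145999, with 15 WT and 11 KO members. ENSG00000290651 ends inside it, at chr11:5145743, and some members of both libraries lay past that end. The stretch holds 2 of the shared far ends printed above. The stretch next in line, chr11:5150000-5151999 over *OR52A5*, had 14 and 8. The intergenic stretch chr11:5146000-5147999 had 14 and 4, and its neighbour chr11:5148000-5149999 had 9 and 9. These 4 stretches adjoin each other. WT holds most of their members, as it does of all members (299 of 492). In KO the stretch with 4 had fewer than chr11:5142000-5143999, with 3 in WT and 8 in KO.

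The score of a member, a Bayes factor (BF) that the authors computed and that ends at 150, was at that limit for 179 of 299 members in WT (59.9%) and 117 of 193 in KO (60.6%), a difference that did not pass (Fisher's exact test, p = 0.925). Within 100 kb of the edge 166 of 228 WT members (72.8%) and 101 of 145 KO members (69.7%) were at the limit. Farther away the counts were 13 of 71 (18.3%) and 16 of 48 (33.3%), lower in both libraries (Fisher's exact test, adjusted p = 5e-16 and 1.42e-05). Below the limit the members held only 5 values per library, and each value belonged to members anchored in 1 stretch of the locus. In WT the 44 members with a BF of 44 were all anchored at chr11:5259064-5260023, upstream of *HBD*, with far ends spread over 1016 kb. The 44 members with a BF of 69 were all anchored at chr11:5305457-5306940, at HS3. In KO the 36 members with a BF of 47 were anchored at chr11:5305370-5306943, also at HS3, with far ends spread over 1037 kb. Among members at the limit alone, the share anchored upstream of *HBD* was 48.6% in WT and 17.9% in KO (ratio 0.369, exact adjusted p = 1.38e-06).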

How the data were processed

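CAPTURE-3C-seq libraries of WT and BCL11A KO HUDEP-2 cells were analysed from the 2 merged interaction lists, 1 per genotype, each made by the authors from 3 replicates. The replicates' own samples were not used here. Per the labels, reads with a single alignment to hg19 were kept, and the submitters' processing notes name Bowtie2 2.2.8 and Picard. The authors deposited the positions of both ends and a BF score of at least 20, computed with their MAXIM software. Read numbers per interaction are not given, so depth is unknown and distinct interactions were counted.

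Lists were joined, mirrored and repeated lines were collapsed (6390 lines in WT and 4844 in KO), and an end was placed by its midpoint. Of the interactions, 20 in WT and 21 in KO had several scores, and the highest was kept. Captured regions and sites were read by eye from the study's browser view as distances from start sites and placed with GENCODE release 44 on GRCh37, so their borders are approximate, and windows upstream of *HBD* are given by coordinates. Shares have Wilson 95% intervals, numbers exact Poisson intervals, and Fisher's exact test (two-sided) set one library against the other, with adjustment after Benjamini and Hochberg within each family (threshold 0.05, scipy 1.17.1). Interactions share ligated fragments and PCR copies and are not independent molecules. Intervals, floors (3 counts) and p-values treat them as independent. They cover counting error at most and can be too narrow or too small even for that. The tests were tried on simulated data first. Members and lists were chosen with earlier results of these data known. Genes named are up to 20 with the most far ends and a listed set, bins named up to 10 with the most members and any bin that passed. Alternatives changed the score, the counting unit, the minimum distance, denominators, windows, bin sizes and gene spans. The alternatives by anchor, by cluster and within 100 kb were chosen after seeing the data. The sequences of some ends are not reported here.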

Additional observations from a re-analysis of the deposited data

Results flagged for a closer look

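The change from WT to KO in the number of members differed between anchors by a test of the difference itself (Fisher's exact test on the 2 anchors' counts, adjusted over 3 comparisons). The region upstream of *HBD* went from 145 to 25 members while the LCR had 150 in both, a ratio of ratios of 0.172 (exact adjusted p = 1.14e-14). *HBB* went from 4 to 18 against the same LCR counts, a ratio of ratios of 4.5 (exact adjusted p = 0.00384). The region upstream of *HBD* against *HBB* gave 0.0383 (exact adjusted p = 4.29e-10). These tests compare 2 merged libraries, and the spread between replicates is not known. They count single interactions and take no account of list size. Interactions of each anchor numbered 1786 and 1013 upstream of *HBD*, 1195 and 1224 in the LCR and 198 and 125 at *HBB*. To the HS5 side the numbers were 138 and 53, 184 and 235, and 7 and 14, in the same order. In clusters the members numbered 32 and 8, 47 and 45, and 1 and 6. The test was not run on clusters. The stretch 4 to 5 kb upstream of *HBD*, with 42 and 2 members, and the 44 WT members that share a BF of 44 lie within the difference between the region upstream of *HBD* and the LCR. Their part in it was not tested.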

How the results depend on the processing

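Of 155 alternative values over 16 settings, 12 had the same counts as the main value and say nothing of stability, and of the other 143, 107 kept their direction and their side of the threshold. No paired analysis was possible because the lists analysed here merge the replicates of each genotype. With clusters of interactions as the unit (both ends within 2 kb), chosen after seeing the data, most calls were lost: ratios of KO to WT were 0.790 for the share of locus interactions, 0.835 for the share to the 3'HS1 side, 8.14 for the *HBB* anchor, 1.30 for the LCR anchor, 3.27 for members among *HBB* interactions and 0.470 for those upstream of *HBD*. The HBD upstream anchor kept its call (ratio 0.339, exact adjusted p = 0.0116), and the HBD window at chr11:5258713-5259713 (0.452), HS4 (1.92) and the HBD share to the 3'HS1 side (0.702) lost theirs. The share of locus interactions also lost its call at the highest BF only (0.853), for pairs of 1-kb bins (0.866), for far ends at least 10 kb out (0.866) and against interactions with ends at least 10 kb apart (0.916). At least 10 kb out, the share to the 3'HS1 side also lost its call, over all anchors (0.878) and from upstream of HBD (0.730).

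Values that changed direction without a call on either side were, at the highest BF only, the distance classes 10 to 50 kb (1.05), 50 to 100 kb (0.994) and 500 kb and more (5.35) and HS2 (0.595); for 1-kb bins, 50 to 100 kb (0.999); at least 10 kb out, the *HBB* share to the 3'HS1 side (0.972), the HBD window at chr11:5257713-5258713 (0.895) and members among LCR interactions (1.02); at every distance, members among interactions leaving the LCR (1.03); with double windows, that HBD window (0.689); for clusters, 0 to 10 kb (1.69), 100 to 500 kb (0.999) and that HBD window (0.678); and for LCR members alone, 10 to 50 kb (1.41), 50 to 100 kb (0.849), 500 kb and more (1.25) and OR genes (0.904). OR genes with 2 kb on each side passed (1.21), and with double windows the HBD window at chr11:5256213-5257213 passed (0.103). At the highest BF 1 far-end bin was called, chr11:5120000-5129999 with 0 WT and 6 KO members (exact adjusted p = 0.0388), against 0 in the report. The causes were not tested.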
